A study of Bos taurus with 12 samples.

Results

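The regions described here are 2 windows of 1 Mb in the bovine genome (build bosTau8), chr1:145000001-146000000 and chr14:1-1000000, which held more peaks of methylated DNA than any other 1 Mb bin of the same chromosome. A peak belonged to a window when its start fell inside it, and both windows had been chosen by their measured number of peaks, so that number is given as a description and never tested. They held 3283 of the 254448 peaks in the lists of the 12 single libraries (1535 on chromosome 1 and 1748 on chromosome 14) and 2149 of the 371939 peaks in the 6 lists called on merged replicates. Peaks of the 12 libraries that shared at least 1 bp joined into 205 regions in the window on chromosome 1 and 249 in that on chromosome 14, out of 76298 regions genome-wide.

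MBD-seq captures fragments of DNA with the methyl-CpG-binding domain of a protein and sequences them, so the depth of reads over a stretch depends in part on how much methylated CpG it carries. Peaks were called with no input control, so other influences on depth cannot be told apart from methylation here. A peak is a place where reads pile up above the local level. DNA with many methylated CpGs close together holds on to the protein more tightly than DNA with few, and stepwise elution with salt separates fragments by this property. Methylated CpGs are found in muscle, as in other mammalian tissues, over much of the genome, including repeated sequence and the ends of chromosomes.

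Longissimus muscle came from inbred Angus steers of about 12 months of age of 1 herd, 2 with tender and 2 with tough beef, and the labels name no treatment. The DNA of each animal was eluted in 3 steps, which gave high, medium and low methylated fractions, and hence 6 conditions of 2 libraries each: HTE and HTO (high, tender and tough), MTE and MTO (medium), and LTE and LTO (low). The labels call the muscle longissimus dorsi and the study's text longissimus lumborum, and the sources give opposite orders of salt for the fractions, so the fractions are used only by the methylation level in their labels. Libraries of 1 condition came from separate animals, so the spread within a condition is that between 2 animals. The same 4 animals recur at each level, but the labels do not say which libraries of different levels share an animal, and the tests between levels take the libraries as separate. Muscle was sampled in bulk, and the lists hold no expression values with which the tissue or its cell types could be checked. A difference in the make-up of cells and a difference in methylation per cell cannot be told apart here.

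After removal of duplicates, with at most 1 tag kept per position and strand, a library held 3677473 to 7981292 tags. The high libraries were the shallowest. Pileup is the number of tags, each extended to the fragment length of the library (146 to 203 bp), that cover the summit of a peak. Since a position can hold 1 tag per strand, pileup cannot go above 2 times the fragment length, which is 292 to 406 in the single libraries, and no peak of the 18 lists went above that limit. Fold enrichment is the pileup over the local background, with 1 added to both, so the local background at each summit could be computed back from the deposited values. With no input control, the local background came from the same reads as the pileup, taken over 10000 bp where that exceeded the genome level. It is given in tags or as a multiple of the genome floor, the level that the kept tags would give if spread evenly over the genome (0.287 to 0.507 tags).

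On chromosome 1 the window held 99 and 96 peaks in the HTE libraries (replicates 1 and 2), 86 and 91 for HTO, 158 and 159 for MTE, 129 and 128 for MTO, 133 and 154 for LTE, and 144 and 158 for LTO. On chromosome 14 it held 99 and 93 for HTE, 89 and 96 for HTO, 170 and 171 for MTE, 168 and 158 for MTO, 140 and 167 for LTE, and 200 and 197 for LTO. In both windows the 4 high libraries had fewer peaks than any medium or low library, while medium and low libraries overlapped. The merged lists held 103 to 222 peaks in the window on chromosome 1 and 116 to 266 in that on chromosome 14.

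**Figure D1:**
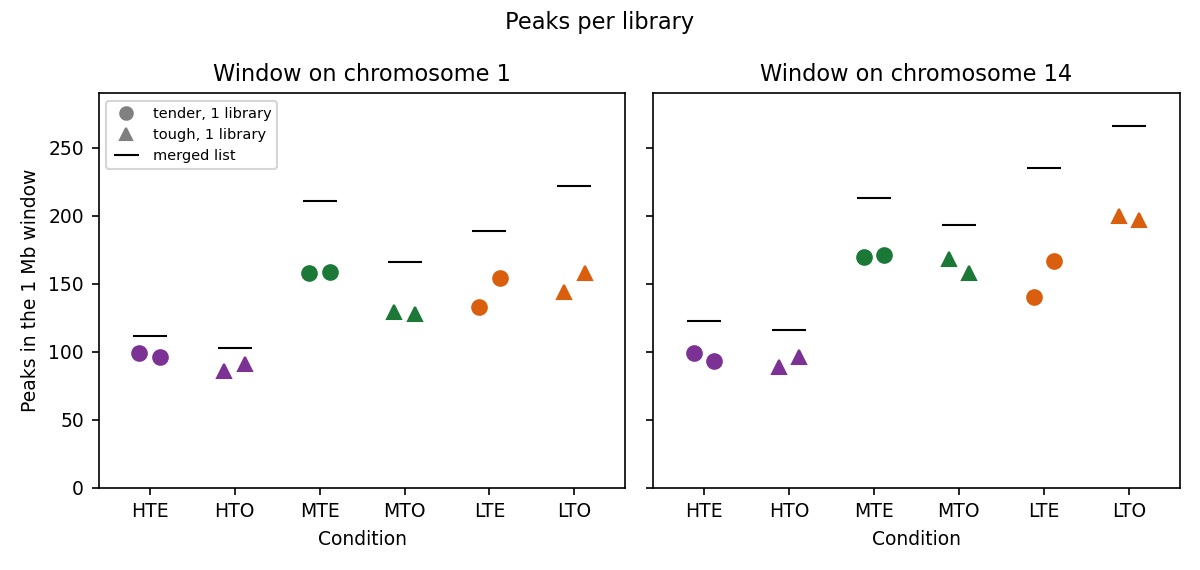
Number of peaks (vertical axis) in each 1 Mb window for the 12 libraries (circles tender, triangles tough; color gives the methylation level) and the 6 merged lists (black bars), by condition. The high libraries lie between 86 and 99 peaks in both windows, below all medium and low libraries, and every merged list lies above its 2 libraries.

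Each window was the densest 1 Mb bin of its chromosome in all 18 lists. Genome-wide, the window on chromosome 1 ranked 4 to 6 among bins of 1 Mb in the single libraries, and that on chromosome 14 ranked 2 to 6. Relative to the rest of its chromosome, peak density in the window on chromosome 1 was 31.3 ± 2.36 times higher in high (SD, n = 4 libraries), 19.2 ± 1.48 times in medium and 29.8 ± 15.0 times in low libraries. On chromosome 14 the ratios were 28.6 ± 3.0, 17.2 ± 3.97 and 27.9 ± 11.6. At the low level, LTE_1, the library with the fewest peaks (9941), had ratios of 49.8 and 43.9, the highest of the 12. LTE_2 had 32.6 and 29.2, and both LTO libraries lay lower. These had 17.3 and 19.4 on chromosome 1 and 19.6 and 18.9 on chromosome 14. Without LTE_1 the low-level means were 23.1 and 22.5. The high density ended at different places: the 1 Mb before the window on chromosome 1 still held 22 to 88 peaks per library, the 1 Mb after it 3 to 36, and the 1 Mb after the window on chromosome 14 held 19 to 61. At the borders on chromosome 1, the last peak before the window had a pileup of 7 to 29 tags and the first inside one of 6 to 203, and the last inside had 6 to 15 and the first after it 8 to 15. On chromosome 14 the last peak inside had a pileup of 15 to 86 and the first after it one of 15 to 75.

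The density on chromosome 1 was that of a single block. Between 81.6% and 99.2% of the peaks of the window lay in chr1:145293517-145452512, the outermost borders over the 12 libraries, and in a library the block spanned 158708 to 158958 bp. Its start differed by at most 173 bp between libraries and its end by at most 115 bp. The block was defined by local background. Its borders in a list are the outermost peaks of the window with a background of at least 20 tags, a limit chosen after the values were seen. No peak of lower background lay between its borders in any of the 18 lists. It held 96 and 91 peaks in HTE, 84 and 85 for HTO, 129 and 132 for MTE, 115 and 113 for MTO, 132 and 142 for LTE, and 128 and 140 for LTO. Outside the block, the rest of the window held only 1 to 29 peaks per library, which is what the step at both borders in the profile along the window shows.

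Peaks of the block were high in pileup and low in fold enrichment, which follows in part from their choice by a high background. Their median pileup was 174 ± 9.0 tags in high, 223 ± 13.5 in medium and 252 ± 12.4 in low libraries (SD, n = 4). As a share of the largest pileup that the rule on duplicates allows, this was 47.8 and 47.7% for HTE, 41.3 and 41.6% for HTO, 76.4 and 76.4% for MTE, 63.9 and 63.1% for MTO, 79.8 and 85.5% for LTE, and 81.7 and 82.4% for LTO. The 3 levels did not overlap, and in the low libraries the block lay close to the limit, so that pileup there had little room to be higher. Depth was not divided out of these values, and the high libraries, lowest here, were also the shallowest. The local background was 246 ± 8.19 times the genome floor in high, 263 ± 31.3 times in medium and 331 ± 40.9 times in low libraries. The high and medium libraries overlapped in this measure (236 to 256 and 234 to 296), and the low and medium libraries did so as well (lowest low library 285). With such a background, the median fold enrichment was only 2.22 ± 0.069, 2.09 ± 0.138 and 1.83 ± 0.036, against 5.44 to 7.17 for the median peak in the rest of chromosome 1.

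**Figure D2:**
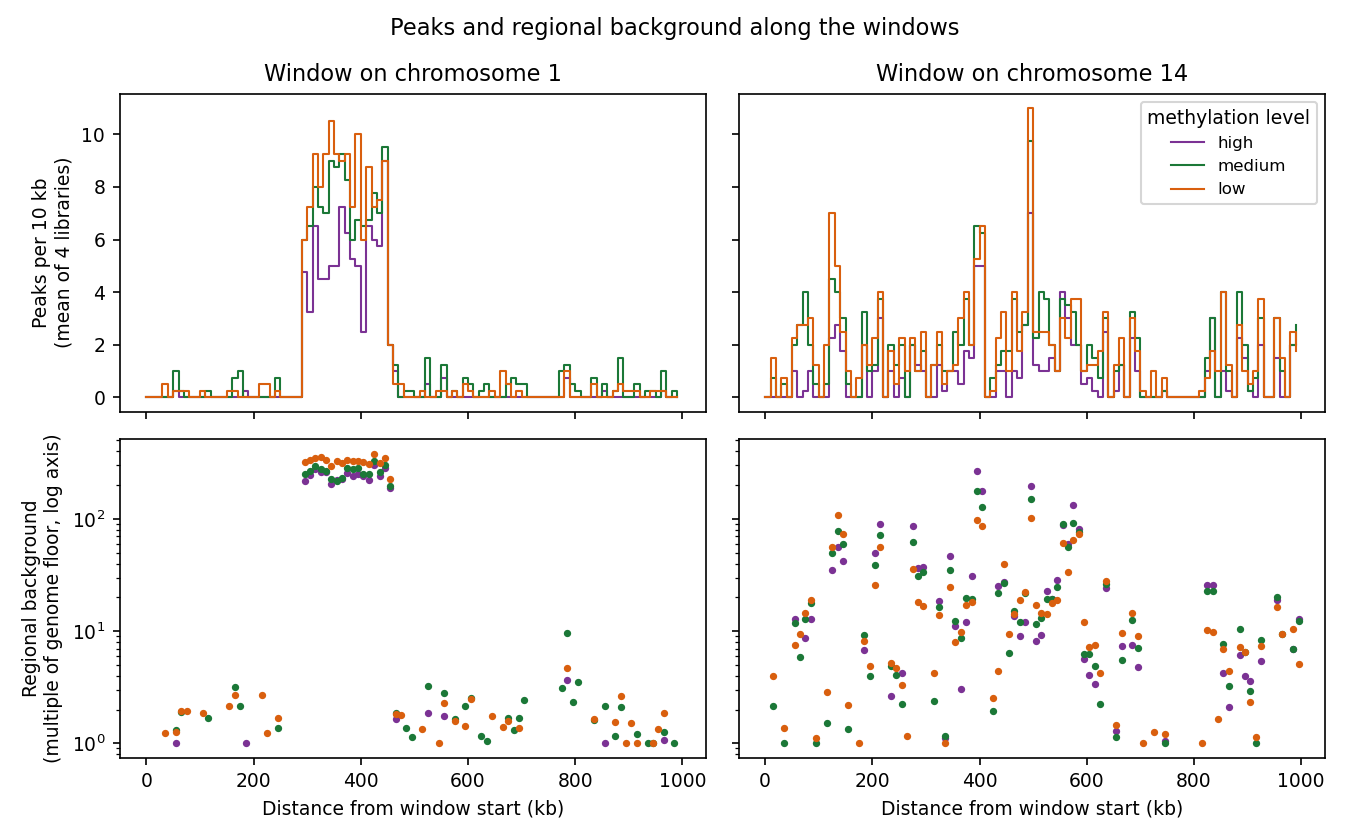
Peaks per 10 kb (upper panels, mean of the 4 libraries of a level) and local background at the peaks as a multiple of the genome floor (lower panels, median over all peaks of a level, log axis) against distance from the start of each window in kb; color gives the methylation level. On chromosome 1 the peaks form 1 block with a background above 100 times the floor between sharp borders, and on chromosome 14 they lie in several groups whose background ranges from the floor to 267 times the floor.

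Within the block, peaks followed each other at a median distance of 1481 ± 29.5 bp in high, 1237 ± 77.1 bp in medium and 1099 ± 96.5 bp in low libraries (SD, n = 4). Peaks covered 23.1 ± 0.76%, 31.2 ± 1.84% and 34.1 ± 0.54% of its length. High libraries were sparser than medium and low ones in both measures. The longest gaps recurred at the same places. For HTE_1, HTE_2 and HTO_1 the longest gap was 5387 to 5426 bp, in HTE_1 from 145404933 to 145410341, whereas in HTO_2 it was 7145 bp, from 145303598 to 145310742. For the MTO libraries it was 4798 and 4815 bp, and for the MTE, LTE and LTO libraries 2741 to 2784 bp, in LTE_2 from 145305633 to 145308373.

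**Figure D3:**
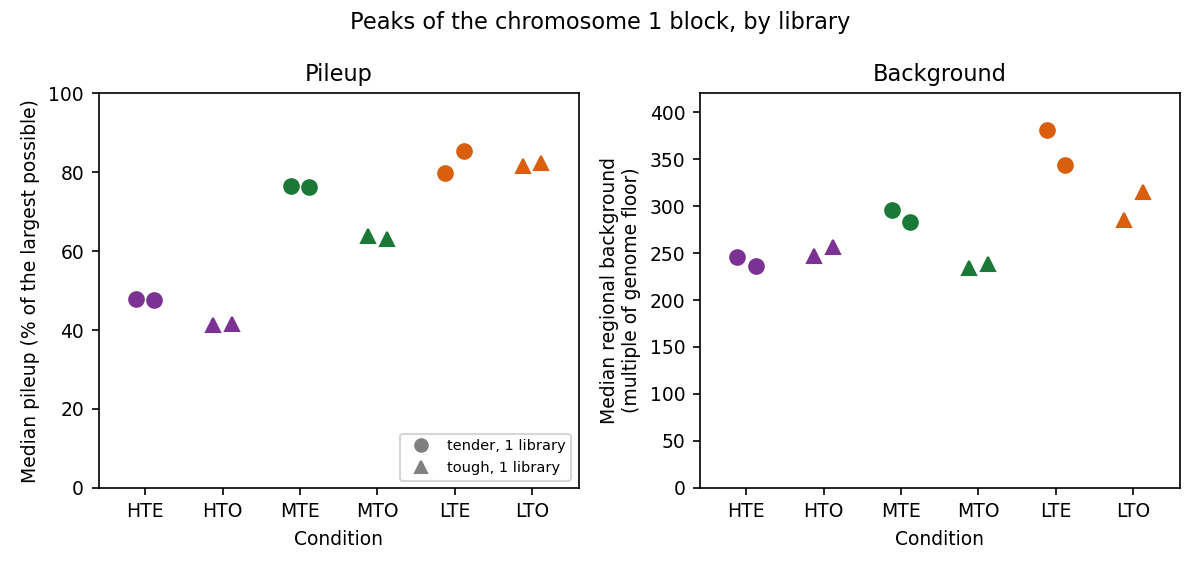
Median pileup of the peaks in the chromosome 1 block, as percent of the largest possible pileup (left), and their median local background as a multiple of the genome floor (right), for the 12 libraries by condition (circles tender, triangles tough). Pileup is 41.3 to 47.8% in the high libraries and 79.8 to 85.5% in the low ones, and in this panel tender lies above tough at the high and medium levels and overlaps it at the low level. In the background panel tender lies below tough at the high level and above it at the medium and low levels.

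Of the 135 regions of the block, 75 (55.6%) had a peak in all 12 libraries, and only 3 were found in 1 library. Genome-wide, 4.36% of regions had a peak in all 12 libraries, and in the rest of chromosome 1 it was 4.39%. Peaks were less dense in the rest of the chromosome, and denser peaks overlap more by position alone. A further 39 regions of the block had no peak in any high library, and 22 of these had one in all 4 low libraries. Regions without a high-level peak were more common genome-wide: 20.2% had peaks in medium and low libraries, 25.7% in medium only and 31.7% in low only. No genome-wide share was computed for the pattern of the 22. Outside the block, none of the 70 regions of the window was found in all 12 libraries and 39 were found in 1 library, and the peaks there had a median pileup of 8 to 13 tags and a median fold enrichment of 5.51 to 8.32.

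By the rule set for naming regions, the 3 regions of the chromosome 1 window with a peak in all 12 libraries and the highest fold enrichment in their weakest library all lay in the block, and 2 of them were its ends. The last region of the block, chr1:145451487-145452512, had a fold enrichment of 2.83 to 4.00. Its pileup was 182 and 194 for HTE, 175 and 190 for HTO, 273 and 259 for MTE, 236 and 255 for MTO, 254 and 264 for LTE, and 278 and 264 for LTO. By its weakest library it stood highest above its background of all regions of the block found in every library. Its background was 162 ± 8.16 times the floor at the high level, lower than the 246 of the block as a whole. At the ends of the block, the 10000 bp used for the background reach outside it, so fold enrichment there is not comparable with that inside. The first region of the block, chr1:145293517-145294093, had a fold enrichment of 2.29 to 3.23 and a pileup of 110 to 128 in the high, 163 to 209 in the medium and 203 to 227 in the low libraries. The third, chr1:145449030-145449708, lay just before the last, with a pileup of 219 to 254, 267 to 288 and 274 to 302. In these 3 regions, the high libraries lay below all medium and low libraries.

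The highest pileup of the window in a single library, 309 tags in LTO_1, was at chr1:145417319-145418067. There the pileup reached 61.6 ± 6.15% of its limit in high, 86.7 ± 3.81% in medium and 92.2 ± 2.32% in low libraries. The widest region, chr1:145784678-145785913 (1236 bp), lay outside the block and had a peak in 9 libraries with a pileup of 11 to 29. It was missing from HTE_1, LTE_1 and LTO_1. The 100 kb with the most regions, chr1:145300001-145400000, held 89, and the longest stretch without a region, chr1:145705864-145776724, was 70861 bp long.

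Raised background of this kind was not limited to the window. In the rest of chromosome 1, 118 to 271 peaks per library stood on a background of at least 20 tags, spread over 15 to 19 other bins of 1 Mb, and the bin just before the window held the most of them in 8 of the 12 libraries. These made up 45.4 ± 4.23% of the peaks of the rest of the chromosome in high, 22.0 ± 5.12% in medium and 20.5 ± 5.79% in low libraries. In the high libraries the median pileup of the rest differed widely between libraries, at 97 and 32 tags for HTE and 98.5 and 23 for HTO, whereas it was 9 to 13 tags in all medium and low libraries.

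On chromosome 14 the window had no single block. Its peaks began 11467 to 57310 bp from the start of the assembled chromosome and ran to its end, 984327 to 997753 bp, with a gap between. The longest stretch without a region, chr14:740356-816679, was 76324 bp long. The 100 kb bin chr14:400001-500000 held the most regions, 46, with 18 to 19 peaks in the high, 25 to 33 in the medium and 27 to 40 in the low libraries. Median spacing between peaks was 3595 ± 723 bp in high, 1963 ± 456 bp in medium and 2116 ± 314 bp in low libraries (SD, n = 4). The high libraries, at 3028 to 4628 bp, did not overlap the others, at 1565 to 2610 bp.

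Peaks of the chromosome 14 window were less alike. Raised background of at least 20 tags was found for 26.5 to 35.5% of them, against 2.41 to 11.7% in the rest of the chromosome, and the median fold enrichment was 5.04 to 6.30. Median pileup was 66 and 85 tags for HTE, 74 and 70 for HTO, 53 and 58 for MTE, 51 and 51 for MTO, 49.5 and 45 for LTE, and 43 and 44 for LTO, which placed all high libraries above all others, opposite to the block on chromosome 1. Pileup is not divided by depth, and the high libraries had the fewest tags. Each median is over the peaks its own library had, 89 to 99 per high library against 140 to 200 in the others. The medians thus compare different sets of peaks. Of the regions described below with a peak in all 12 libraries, only chr14:394937-395638 had every high library above all others in pileup. The median local background, which comes from the same reads and peaks and is no separate measure, showed the same order as the median pileup, in units of the genome floor. It was 28.7 ± 2.45 times in high, 17.1 ± 1.34 times in medium and 16.7 ± 0.94 times in low libraries, with no overlap between the high and the other libraries.

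The difference between the windows was clearest where chromosome 14 was highest. In chr14:400001-500000 the median background was 162, 161, 178 and 175 times the floor in HTE_1, HTE_2, HTO_1 and HTO_2, 97.8, 104, 59.9 and 120.5 times in the medium libraries in the same order, and 77.5, 72.5, 34.5 and 73.0 times in the low libraries. The highest pileup of the window in a single library, 376 tags in HTE_2, was at chr14:394937-395638, a region with a peak in all 12 libraries. Its pileup reached 91.8 ± 3.50% of its limit in high, 90.1 ± 3.63% in medium and 55.2 ± 11.5% in low libraries, and its background was 232 ± 16, 162 ± 21.2 and 87.5 ± 9.15 times the floor. The high libraries thus had the highest median background in this bin, again over different sets of peaks, and the highest background in this region. In the chromosome 1 block they had the lowest mean background but overlapped the medium libraries. The region was named for the highest pileup in any library, and the high libraries have the largest pileup limits, so the order there follows in part from that choice. The order was not uniform within the window: in chr14:100001-200000 the background was 34.4 to 38.4 times the floor in the high, 48.0 to 54.8 in the medium and 55.5 to 58.5 in the low libraries, the same order as in the block.

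The 3 regions of the chromosome 14 window with a peak in all 12 libraries and the highest fold enrichment in their weakest library were chr14:347787-348994, chr14:542112-543113 and chr14:660487-661473. The first had a fold enrichment of 12.97 to 19.5, with a pileup of 291 and 310 for HTE, 289 and 283 for HTO, 247 and 234 for MTE, 283 and 303 for MTO, 121 and 134 for LTE, and 210 and 178 for LTO. The second had a pileup of 199 to 220 in the high, 181 to 240 in the medium and 95 to 139 in the low libraries. In both, the low libraries lay below the others and LTE lay below LTO. The third went the other way, with 46 and 46 tags for HTE, 34 and 32 for HTO, 73 and 80 for MTE, 60 and 45 for MTO, 83 and 133 for LTE, and 106 and 83 for LTO. The widest region, chr14:464050-465286 (1237 bp), had a peak in 11 libraries and was missing from LTE_1.

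Regions of the chromosome 14 window were shared by fewer libraries than those of the block: 53 of 249 (21.3%) had a peak in all 12 libraries and 34 (13.7%) in 1 library, against 2.55% and 47.8% in the rest of the chromosome. Over the whole window on chromosome 1 the shares were 36.6% and 20.5%. By level, 98 regions on chromosome 1 (47.8%) and 100 on chromosome 14 (40.2%) had a peak in at least 1 library of every level, against 14.1% genome-wide. Peaks in medium and low but not in high libraries were found for 36 and 65 (17.6% and 26.1%, genome-wide 20.2%). For 33 and 58 they were in low libraries only (16.1% and 23.3%, genome-wide 31.7%). For 32 and 14 they were in medium libraries only (15.6% and 5.62%, genome-wide 25.7%). Another 5 and 11 had peaks in high and medium but not in low libraries (2.44% and 4.42%, genome-wide 7.18%). In each window 1 region had peaks in high libraries alone (genome-wide 1.07%). No region had peaks in high and low libraries but not in medium ones, a pattern of 0.101% of regions genome-wide.

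**Figure D4:**
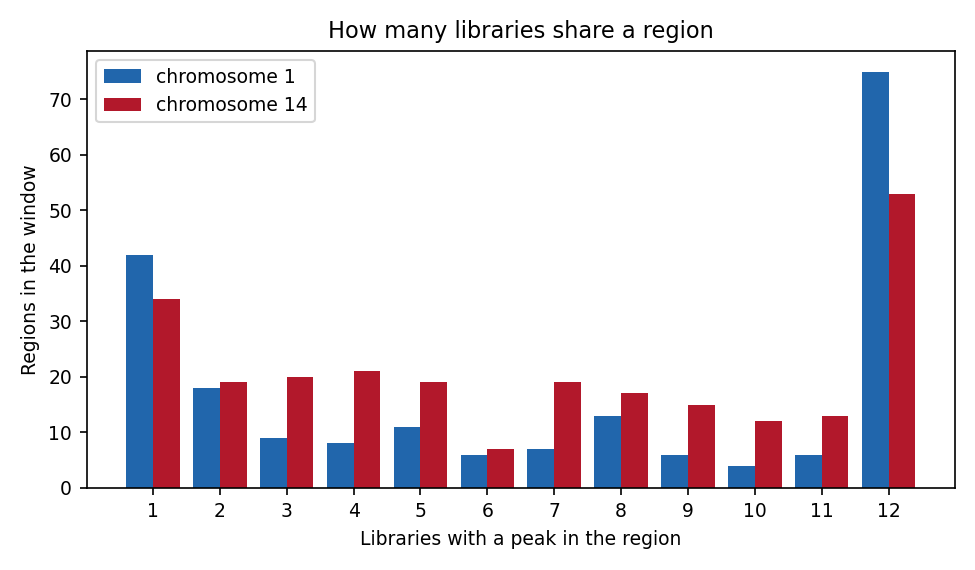
Number of regions in each window (vertical axis) by the number of the 12 libraries with a peak in the region. On chromosome 1, 75 regions are found in all 12 libraries and 42 in 1, with 4 to 18 regions at each number between, and on chromosome 14 it is 53 and 34, with 7 to 21 between.

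Peaks of the windows were found again in other libraries more often than those of the rest of their chromosomes. Overlap meant at least 1 bp shared, and the windows were chosen by their number of peaks. Peaks covered 22.1 to 34.4% of the block in a library, against 0.0800 to 0.230% of the rest of chromosome 1. Denser peaks overlap more by position alone, here and in the shares of regions found in all 12 libraries, and that part was not measured. Of the peaks of a library in the chromosome 1 window, a mean of 91.5% overlapped a peak of the other replicate and 89.1% a peak of a library of the other beef at the same level, against 66.4% and 64.0% in the rest of the chromosome. On chromosome 14 the means were 88.0% and 85.5%, against 61.4% and 58.9%. Between levels, 95.7% of high-level peaks on chromosome 1 overlapped a low-level peak and 62.7% of low-level peaks a high-level one, and on chromosome 14 it was 80.6% and 45.1%. Of the peaks of the merged lists, 8.74 to 25.7% in the windows overlapped no peak of either replicate, against 19.2 to 74.5% in the rest of the 2 chromosomes.

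Which peaks count as enriched set much of what was seen on chromosome 1. With a fold enrichment of at least 3 required, 2 to 30 peaks per library (1.50 to 19.0%) were left in the window on chromosome 1, while 65.7 to 88.9% were left in the rest of the chromosome, and the density ratio dropped to 4.16 in high, 3.91 in medium and 2.23 in low libraries. On chromosome 14, 86.0 to 95.7% of the peaks of the window were left. With −log10 q of at least 5, in contrast, at least 94.2% of the peaks of either window were left in every library. With the same number of peaks taken from every library (9941), the ratio was 34.0, 37.4 and 47.0 on chromosome 1 and 33.1, 41.9 and 47.3 on chromosome 14 in the order high, medium, low. For the merged lists it was 23.5, 10.2 and 7.48, and 20.7, 7.98 and 7.19.

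Whether width and pileup in the windows differed between methylation levels was tested on ratios within a library, the median over the peaks of the window against the median over the rest of the chromosome, so that depth and fragment length entered both sides. On chromosome 1, the log2 ratio of width was 0.32 and 0.36 for HTE, 0.39 and 0.38 for HTO, 0.59 and 0.68 for MTE, 0.57 and 0.56 for MTO, 0.80 and 0.87 for LTE, and 0.89 and 0.84 for LTO. The levels did not overlap, with means of 0.36 ± 0.03, 0.60 ± 0.05 and 0.85 ± 0.04. The differences were -0.24 for high minus medium, -0.48 for high minus low and -0.25 for medium minus low, each with p = 0.0286 in a two-sided exact permutation test, the smallest p that 4 libraries against 4 can give, and with 0.0571 after Benjamini-Hochberg adjustment of the exact p over 12 tests. These did not pass the threshold of 0.05. With −log10 q of at least 5 the 3 differences passed it at an adjusted exact p of 0.049. Their exact p was already the smallest possible, and the adjusted value fell because 7 rather than 6 of the 12 tests then reached it. The ratio differed through the rest of the chromosome: median width in the window was 361 ± 18.4, 339 ± 20.4 and 346 ± 22.8 bp at the high, medium and low level, and in the rest 280 ± 10.2, 224 ± 20.1 and 193 ± 14.1 bp. The signs of the differences from the high level did not hold with a fold enrichment of at least 3, where they turned to 0.69 and 0.43. Only 2 to 30 peaks per library were then left in the window, so these medians rest on few peaks.

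The log2 ratio of pileup on chromosome 1 was 0.79 and 2.52 for HTE, 0.76 and 2.84 for HTO, 4.22 and 4.16 for MTE, 3.92 and 4.02 for MTO, 4.36 and 4.64 for LTE, and 4.89 and 4.57 for LTO. Level means were 1.73 ± 1.11, 4.08 ± 0.14 and 4.62 ± 0.22, again without overlap, with p = 0.0286 for each pair of levels in the exact permutation test and 0.0571 after adjustment. In HTE_1 and HTO_1, which had the lowest ratios, the median pileup in the rest of the chromosome was the highest of the 12 libraries, and 49.2% and 48.9% of the peaks there had raised background. With the fold enrichment limit, and so over few peaks of the window, high minus medium and high minus low turned from -2.35 to 1.91 and from -2.89 to 0.90.

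On chromosome 14 the log2 ratio of width was 0.29 ± 0.07 in high, 0.32 ± 0.05 in medium and 0.41 ± 0.05 in low libraries, and that of pileup was 2.45 ± 0.16, 2.18 ± 0.08 and 2.22 ± 0.06. Libraries of each pair of levels overlapped in both measures, and p in the exact permutation test lay between 0.0571 and 0.543. None of the 12 tests on the 2 windows passed after adjustment of the exact permutation p, and 6, all on chromosome 1, had an unadjusted p under 0.05.

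**Figure D5:**
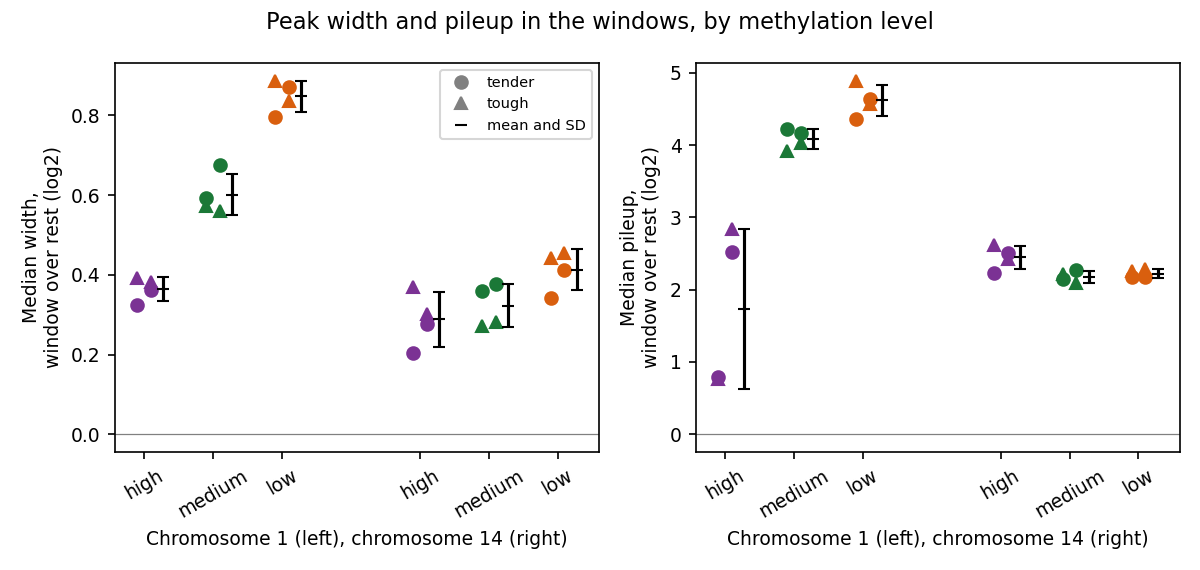
Log2 ratio of the median peak width (left) and median pileup (right) in a window over the rest of its chromosome, by methylation level, with 1 point per library (circles tender, triangles tough) and mean ± SD of the 4 libraries in black; each panel shows chromosome 1 at its left and chromosome 14 at its right. On chromosome 1 both ratios are ordered high, medium, low without overlap (width 0.36, 0.60 and 0.85), and on chromosome 14 the levels overlap.

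Tender and tough beef were compared within a level, with 2 libraries each, so the smallest p of an exact permutation test is 0.333 and none of the 12 tests of width and pileup ratios could pass. In 7 of the 12 the 2 kinds of beef did not overlap, where chance alone leaves a share of 0.333 of such comparisons without overlap. That number was 3 with the same number of peaks from every library and 4 against the rest of all chromosomes. The 12 comparisons share libraries, and the number was not tested. The largest such difference was in pileup on chromosome 1 at the medium level, with a log2 ratio of 4.22 and 4.16 for MTE and 3.92 and 4.02 for MTO (tough minus tender -0.22). In the block, the share of the pileup limit was 76.4 ± 0.045% for MTE and 63.5 ± 0.53% for MTO (SD, n = 2). It was 47.7 ± 0.043% for HTE and 41.4 ± 0.26% for HTO, while LTE (82.7 ± 4.0%) and LTO (82.0 ± 0.49%) overlapped. This share depends on the fragment length, which sets the limit. In tags, the median pileup was 240 and 223 for MTE, 207 and 221 for MTO, 171 and 187 for HTE, and 167.5 and 169 for HTO. At both levels the nearest tender and tough libraries lay closer together in tags than the 2 libraries of MTE or HTE. Fragment length and depth also differed between these libraries. Background in units of the floor was 283 to 296 for MTE and 234 to 239 for MTO, and 344 to 381 for LTE and 285 to 315 for LTO, but in the high libraries it was higher in tough beef (236 and 246 for HTE, 247 and 256 for HTO).

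A region was called specific to one kind of beef at a level when it had a peak in both libraries of that beef and in none of the other. At the high level, 9 of 223 regions of the 2 windows were specific to tender beef (4.04%) and 1 to tough beef (0.448%), where 3.62% and 1.66% of all regions genome-wide were. At the medium level, 25 of 367 were specific to tender (6.81%, genome-wide 8.74%) and 9 to tough beef (2.45%, genome-wide 1.83%). At the low level, 2 of 407 were specific to tender (0.491%, genome-wide 0.501%) and 25 to tough beef (6.14%, genome-wide 9.24%). The windows differed among themselves: at the medium level 1 region on chromosome 1 (0.578%) and 8 on chromosome 14 (4.12%) were specific to tough beef and 17 (9.83%) and 8 (4.12%) to tender beef, and at the low level 6 (3.45%) and 19 (8.15%) were specific to tough beef. These counts are small and were not tested. The share found in all 4 libraries of a level was higher in the windows: 71.7% and 64.1% on chromosomes 1 and 14 at the high level (genome-wide 43.0%), 64.2% and 67.0% for medium (27.4%), and 70.1% and 50.2% for low libraries (10.6%). Denser peaks overlap more by position alone, and that part of the difference was not measured.

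The strongest region specific to one kind of beef at each level is described here, and several of these had peaks at other levels. The tender-specific region of the medium level with the highest fold enrichment on chromosome 1, chr1:145796644-145796854, had a pileup of 17 and 16 for MTE and no peak in any other library. At the high level, chr1:145522014-145522423 had a pileup of 12 and 13 for HTE and no peak in HTO, but 19 and 22 for MTE and 22 and 16 for MTO. Inside the block, the 1 tough-specific region of the medium level, chr1:145406641-145406832, had a pileup of 147 and 148 for MTO with a fold enrichment of 2.00 and 1.82 and no other peak. On chromosome 14, the tough-specific region of the low level with the highest fold enrichment, chr14:338201-338462, had a pileup of 10 and 17 for LTO and none in LTE, and was found with 15 to 20 tags in all 4 medium libraries. The stronger tender-specific region of the low level, chr14:724316-724484, had 9 and 8 tags for LTE and no peak elsewhere. Of the others chosen by this rule, chr1:145838013-145838282 (low level, tough) had peaks in 5 libraries, chr14:854409-854690 (high, tender) and chr14:140431-140664 (high, tough) in 10 each, chr14:155689-155861 (medium, tender) in 6 and chr14:91245-91426 (medium, tough) in 4.

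Regions with a peak in all 4 libraries of a level and none of the other 8 were few in number, but at the medium and low level their shares were above the genome-wide ones. These small counts were not tested, and the part that denser peaks add by position alone was not measured. There were none at the high level in either window (genome-wide 0.0773% of regions), 3 and 4 among medium libraries (1.46% and 1.61%, genome-wide 0.834%), and 3 and 10 at the low level (1.46% and 4.02%, genome-wide 0.267%). The strongest of the low level on chromosome 14, chr14:843532-843849, had a pileup of 16 and 14 for LTE and 18 and 13 for LTO, with a fold enrichment of 8.43 to 11.3. On chromosome 1 it was chr1:145351200-145351658 in the block, with 208 and 217 for LTE and 226 and 190 for LTO but a fold enrichment of only 1.58 to 1.68. The medium-level regions chosen in the same way were chr1:145776725-145777029, with 11 to 15 tags, and chr14:359263-359460, with 22 to 27 tags.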

How the data were processed

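Peak lists of MBD-seq were deposited for 12 libraries and for the 6 merged conditions. Reads had been aligned to bosTau8 with BWA (0.7.7 in the submitters' processing notes) and kept by the authors where they mapped to a single place, and the authors called peaks with MACS2 (2.1.1.20160309 for single libraries, 2.1.0.20150731 for merged ones) with no input control, a q-value limit of 0.01, at most 1 tag kept per position and 10000 bp for the regional background. The deposited lists give pileup, a signal of tags left unscaled for depth by the authors; fold enrichment, a ratio the authors' MACS2 run computed; and −log10 of the p-value and q-value, also deposited by the authors. Effective genome sizes were 2600000000 bp (single) and 2660939081 bp (merged).

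From these, local background was computed as (pileup + 1) / fold enrichment − 1. Only chromosomes 1 to 29 and X (30 in all) entered. The rest of a chromosome ran to the last peak end of any list (158327071 and 84646656 bp). Two-sided exact permutation tests compared levels (4 against 4) and beef (2 against 2), each with Benjamini-Hochberg adjustment over 12 tests and a threshold of 0.05. The code was tested on simulated data. Work was done in Python 3.11.15 (pandas 2.3.3, numpy 2.4.6, scipy 1.17.1). Alternatives were −log10 q from 5 upwards, a fold enrichment minimum of 3, equal numbers of peaks (9941), rest of the genome, means, merged lists, overlap of 50%, joining within 500 bp, pairing by replicate number and leaving out each library.

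Regions were named by rule, per window: the 3 with a peak in all 12 libraries and the highest minimum fold enrichment, the strongest beef-specific and level-specific region of each level, the highest pileup, the widest region, the densest 100 kb and the longest empty stretch. Members, windows and measures were chosen with earlier results of these data known. Genes, repeats and sequence at the peaks are not analysed here, because neither genome nor annotation of this build was used.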

Additional observations from a re-analysis of the deposited data

Results flagged for a closer look

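Among 66 groups of 4 libraries of a level, 2 held a library far from the other 3, where chance gives about 1 in 20 groups. The median pileup in the window on chromosome 1 was 184 tags in HTE_2 and 165 to 168 in the other high libraries (gap over range 0.842, just above the critical value). The median width in the window on chromosome 14 was 311 bp in HTE_1 and 353.5 to 361 bp in the other high libraries (gap over range 0.850).

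In 4 cases the tough libraries lay wholly above the tender ones at 1 level and wholly below them at another, with 2 libraries per kind of beef, and the difference between the levels was not tested. At a single level, chance alone leaves 2 libraries against 2 without overlap in a share of 0.333 of comparisons. The log2 ratio of peak width on chromosome 1 was higher in tough beef by 0.0439 at the high level and differed by -0.0671 (tough minus tender) at the medium level. The number of peaks in the window on chromosome 14 differed by -7.5 at the medium level and by 45 at the low level (tough minus tender). The log2 ratio of width on chromosome 14 differed, tough minus tender, by 0.0940 for high, -0.0911 for medium and 0.0713 for low libraries, which makes the remaining 2 cases.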

How the results depend on the processing

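Values here are log2 differences of the width and pileup ratios between levels, in the order high minus medium, high minus low and medium minus low where 3 are given (chromosome 1: width -0.24, -0.48 and -0.25, pileup -2.35, -2.89 and -0.53; chromosome 14: width -0.03, -0.12 and -0.09, pileup 0.27, 0.23 and -0.04), density ratios in the order high, medium, low, and numbers of beef-specific regions in both windows. Adjusted p is from the exact permutation test, whose p cannot go below 0.0286 with 4 libraries against 4. Whether a difference at that p passes after adjustment thus depends on how many of the 12 tests reach it. The cause of the changes was not tested. With −log10 q of at least 5, 7 level differences passed at an adjusted p of 0.049: width on chromosome 1 (-0.26, -0.49 and -0.22), pileup on chromosome 1 for high minus medium (-2.87) and high minus low (-3.20), and pileup on chromosome 14 for the same pairs (0.26 and 0.24). With a fold enrichment of at least 3, only 2 to 30 peaks per library were left in the window on chromosome 1. With this limit the sign turned on chromosome 1 for width (0.69 and 0.43) and pileup (1.91 and 0.90) in high minus medium and high minus low, the density ratios there were 4.16, 3.91 and 2.23, and 2 high-level regions were tough-specific, 14 medium-level and 7 low-level ones tender-specific. With 9941 peaks from every library, 9 differences passed at an adjusted p of 0.0381: width (-0.17, -0.35 and -0.17) and pileup (-2.06, -3.83 and -1.77) on chromosome 1, and on chromosome 14 width for medium minus low (-0.22), pileup for high minus medium (0.43) and, with its sign turned, width for high minus medium (0.23). Width on chromosome 14 for high minus low turned to 0.00925. Density ratios were 34.0, 37.4 and 47.0 on chromosome 1 and 33.1, 41.9 and 47.3 on chromosome 14, 3 of 12 comparisons of beef were without overlap (7 in the values reported), and tough-specific regions were 3, 5 and 10 at the high, medium and low level and tender-specific ones 5 and 8 at the medium and low level.

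Against the rest of all chromosomes, signs turned on chromosome 14 for width in high minus medium (0.0403) and for pileup in all pairs (-0.23, -0.23 and 0.0027), density was 21.1 and 12.8 on chromosome 1 at the high and medium level and 21.4 on chromosome 14 at the high level, and 4 comparisons of beef did not overlap. With means over peaks, 7 differences passed at an adjusted p of 0.049: width on chromosome 1 for high minus medium (-0.28) and high minus low (-0.37), width on chromosome 14 for high minus medium (-0.15), pileup on chromosome 1 (-1.16, -1.96 and -0.80), and, with its sign turned, pileup on chromosome 14 for high minus medium (-0.47). Signs also turned for width on chromosome 14 in medium minus low (0.0212) and pileup there in high minus low (-0.14) and medium minus low (0.33). In the merged lists, which allow no test, pileup on chromosome 14 turned to -0.14, -0.0158 and 0.12, and density was 23.5, 10.2 and 7.48 on chromosome 1 and 20.7, 7.98 and 7.19 on chromosome 14. Joining peaks up to 500 bp apart left 16 tender-specific regions at the medium and 16 tough-specific ones at the low level. Asking for an overlap of 50% of the shorter peak changed no count by over 1.5 times.

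Without 1 library, no level difference changed sign. Beef-specific counts were higher by construction, since fewer libraries then had to agree: 15 to 19 tender-specific and 2 to 15 tough-specific regions at the high level, 35 to 43 and 13 to 19 at the medium level, and 3 to 16 and 31 to 61 at the low level, against 9 and 1, 25 and 9, and 2 and 25. With the replicate number as a block (pairs of 1 kind of beef), the values stayed as they were (width on chromosome 1 -0.24, -0.48 and -0.25), the smallest p of the exact permutation test over 4 pairs is 0.125, and no difference passed. Deviations of same-numbered libraries over 1 Mb bins correlated with r from -0.05 to 0.44 over 6 pairs of levels, which does not show whether same-numbered libraries share an animal. The number of libraries, 2 per condition, limits what the comparisons of beef can show.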
